A study of Ovis aries with 60 samples.

Results

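Oxidative phosphorylation is the last step of respiration in mitochondria. Complexes I and II pass electrons from NADH and succinate to ubiquinone, complexes III and IV carry them on to oxygen, and the proton gradient that builds up drives the ATP synthase, complex V. Most subunits are encoded in the nucleus and a few in the mitochondrial genome, and sperm carry their mitochondria in the midpiece, around the flagellum. Several subunits have a testis form and a somatic form.

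The genes described here are the nuclear genes of this machinery in sperm RNA of F2 rams. They were chosen by name: genes whose symbol begins with NDUF, UQCR, ATP5 or COX followed by 4 to 8, together with SDHA, SDHB, SDHC, SDHD and CYC1. This rule found 70 of the 28525 genes in the count table. Complex I had 36 of them and its assembly factors 8, complex II 4, complex III 1, complex IV 3 and complex V 18. Complex III was represented by UQCRH alone, and complex IV by COX5A, NDUFA4 and NDUFA4L2. CYC1, the other UQCR and COX genes and the subunits encoded in mitochondria were not analysed here. The comparison of testis and somatic forms of cytochrome c oxidase subunits (COX6B2, COX7B2 and COX8C against their somatic partners) could therefore not be made.

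RNA from 20 F2 rams of a Polypay sheep trial was sequenced, 1 library for each ram. Each library bears the number of its ram and the line, T for treatment and C for control, as in SpermRNA382T. The 10 treatment rams descended from 5 F0 sires fed rumen-protected methionine on top of the control diet, between weaning and puberty, and the 10 control rams from 5 F0 sires fed the control diet alone. The dams were untreated ewes. Methionine is a methyl donor. Every F1 and F2 animal, in both lines, ate the control diet, so that the only diet that differed between the lines was that of the grandsire. The lines also came from different F0 sires and F1 sons, each of them housed with its own group of ewes. Each F0 sire gave 2 F2 rams through a single F1 son, and rams of 1 sire are therefore not independent. The F0 sires were twins, with 1 twin in each line. Semen was kept in RNAlater, and cells were treated with a somatic cell lysis buffer before RNA was extracted.

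Library totals ranged from 805831 to 13137757 reads counted in genes, and the member genes took between 427 and 6738 reads of a library. The 13577 genes tested held between 90.8% and 99.4% of these reads. A larger or smaller library here means a larger or smaller total of such counted reads. The reads sequenced for each sample spanned a far narrower range in the paper, so that the totals do not stand for sequencing depth. Why the totals differed was not tested. Levels are CPM, counts relative to the reads in the genes tested, after TMM scaling, which sets libraries to a common level through the genes that differ least between them. Where the library total alone is named as the scale, it is those reads with no TMM factor. CPM was not divided by transcript length, so that levels are compared between rams. Where genes are ordered by level, in the marker lists or in the choice of named members, the order also depends on transcript length. Scaling factors ranged from 0.36 in SpermRNA468C to 2.54 in SpermRNA413C, and were smaller in larger libraries.

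The label of the samples, sperm, was checked against marker lists. Of 22 spermatid markers in the table, among them the protamine PRM1 and the transition proteins TNP1 and TNP2, 20 had reads in every ram, and 0 were missing from every ram. Their summed level ranged from 267 CPM in SpermRNA468C to 10730 CPM in SpermRNA382T. Markers of other cells were counted as well. The 16 squamous epithelium markers, led by EMP1, KRT78 and KRT4, had reads in every ram and summed to between 220 CPM in SpermRNA485C and 143594 CPM in SpermRNA468C. The sum was carried by its most abundant members, with medians of 9815, 8216 and 2951 CPM in that order. KRT5, KRT6A, TGM3 and TP63 reached at most 8.62, 6.75, 14.4 and 28.5 CPM in any ram and hardly entered it. Whether each marker moved with the sum was not tested, and slopes on this list describe the sum. The 17 leukocyte markers, led by S100A9 and S100A8, summed to between 136 CPM in SpermRNA485C and 58247 CPM in SpermRNA468C. S100A9 and S100A8 had medians of 7082 and 2967 CPM, against 388 CPM for CSF3R and 95.0 CPM for PTPRC. This sum thus did not weigh its members alike, and whether each of them moved with it was not tested. Of the 17, 16 had reads in every ram. Simple epithelium markers, 9 in the table, summed to between 99.0 and 17518 CPM.

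SpermRNA382T and SpermRNA485C stood apart from the other 18. Their squamous epithelium lists summed to 310 and 220 CPM, against at least 5325 CPM in each of the others, and their leukocyte lists to 215 and 136 CPM, against at least 2858 CPM. Among the other 18 rams the epithelium and leukocyte lists moved together (Pearson's r = 0.895, Spearman's rho = 0.847, permutation p = 2e-05 and 3e-05, adjusted 1e-04 and 0.00015 over 5 relations, r = 0.833 without the 2 rams farthest from the median). The spermatid list ran against the epithelium list (r = -0.638, rho = -0.564, permutation p = 0.0049 and 0.017, adjusted 0.0061 and 0.021, r = -0.566 without 2 rams) and against the leukocyte list (r = -0.754, rho = -0.684, permutation p = 0.00038 and 0.0024, adjusted 0.00063 and 0.004, r = -0.657 without 2 rams). The epithelium list also rose with the library total (r = 0.801, rho = 0.835, permutation p = 9e-05 and 6e-05, adjusted 0.00023 and 0.00015, r = 0.704 without 2 rams), whereas the relation of the spermatid list with it did not pass the test (r = -0.321, rho = -0.346, permutation p = 0.2 and 0.16, adjusted 0.2 and 0.16, r = -0.442 without 2 rams). The TMM factor itself fell with the library total (r = -0.847, rho = -0.858, permutation p = 2e-05 and 4e-05, adjusted 9e-05 and 0.00024 over 6 relations, r = -0.771 without 2 rams). With the lists on the library total, a choice made after seeing the data, the epithelium list still rose with it (r = 0.643, rho = 0.695, permutation p = 0.0043 and 0.0016, adjusted 0.0065 and 0.0033, r = 0.794 without 2 rams). The spermatid list then passed as well (r = -0.569, rho = -0.562, permutation p = 0.014 and 0.017, adjusted 0.017 and 0.021, r = -0.706 without 2 rams). A level on this scale is divided by nearly the library total, which by itself pulls such a relation below 0. The permutation did not keep this link, so that the p of the spermatid list does not show a relation. The epithelium and leukocyte lists were less close on this scale (r = 0.526, rho = 0.54, permutation p = 0.024 and 0.023, adjusted the same, r = 0.399 without 2 rams). The spermatid list ran against both there too (r = -0.764 and -0.832, rho = -0.653 and -0.779, permutation p at most 0.0041, adjusted at most 0.0062). All these permutations took rams of the same sire as independent, so that their p-values may be too small. In these bulk libraries, fewer cells of a type and less RNA per cell cannot be told apart.

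**Figure D1:**
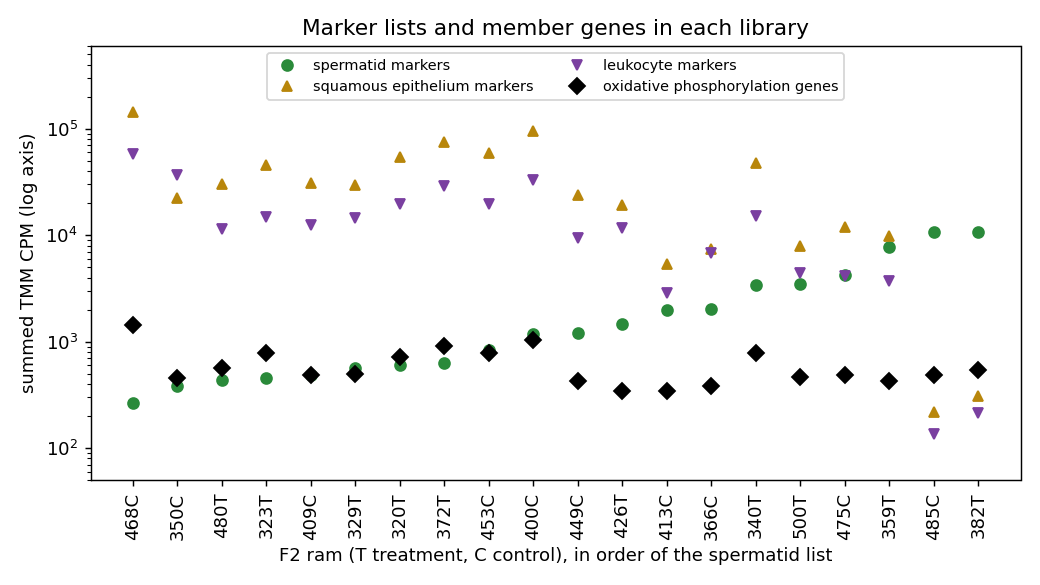
Summed TMM CPM (log axis) of the spermatid, squamous epithelium and leukocyte marker lists and of the 70 oxidative phosphorylation genes in each of 20 F2 rams (T treatment, C control), placed in order of the spermatid list. The member genes sit between 344 and 1428 CPM in all rams, while the squamous epithelium list runs from 220 to 143594 CPM and is lowest in SpermRNA485C and SpermRNA382T.

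The 70 genes together summed to a median of 491 CPM, with 344 CPM in SpermRNA413C as the lowest and 1428 CPM in SpermRNA468C as the highest value. The treatment line had a mean of 604 ± 182 CPM (SD, n = 10) and the control line of 631 ± 351 CPM (SD, n = 10). The ranges of the lines overlapped. With the library total alone as the scale, the lowest value was 315 CPM in SpermRNA350C and the highest 1047 CPM in SpermRNA382T. The ram with the highest level of the whole group thus changed with the scale.

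Of the 70 genes, 42 had at least 15 reads in more than 10 rams and entered the tests, as did 13577 genes in all. All 42 had reads in every ram. The 28 others were 15 complex I subunits (NDUFA1, NDUFA5, NDUFA6, NDUFA12, NDUFA13, NDUFAB1, NDUFB1, NDUFB5, NDUFB6, NDUFB10, NDUFC1, NDUFC2, NDUFS3, NDUFS4 and NDUFS6), 6 assembly factors (NDUFAF2, NDUFAF3, NDUFAF4, NDUFAF5, NDUFAF6 and NDUFAF8), the 3 genes of complex IV, and 4 of complex V (ATP5MC1, its second copy ATP5MC1_1, ATP5MC2 and ATP5MD). Their medians ran from 0 to 4.21 CPM, and 14 of them had no read in at least 1 ram. A count of 0 allows up to 0.418 CPM in the library with the lowest limit and up to 2.43 CPM in the one with the highest, taking 3 reads as the limit, for counting error only. The 2 copies of ATP5MC1, a c-ring subunit, may share reads. They were at 0 in 18 and 11 rams, and their values are uncertain.

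Among the 42 genes tested, the median SD of log2(CPM + 0.5) over rams was 0.75, below the median of 0.91 over all genes tested. The first principal component of the 42 genes took 41.5% of their variance, and the second 17.6%. The highest value was in SpermRNA468C for 24 of the 42 genes, in SpermRNA382T for 7 and in SpermRNA485C for 4. SpermRNA468C had the largest library, the smallest TMM factor and, under TMM, the highest epithelium and leukocyte lists. With the library total as the scale it was highest for 3 of the 42 genes, SpermRNA382T for 9, SpermRNA413C for 7, SpermRNA500T for 5 and SpermRNA485C for 4, so that the rank of SpermRNA468C rested on the scale. The leukocyte list was then highest in SpermRNA350C, at 25492 CPM against 21054 CPM in SpermRNA468C, while SpermRNA468C remained highest for the epithelium list. SpermRNA382T and SpermRNA485C had the lowest of both lists on either scale. Summed by complex, the highest ram on the library total was SpermRNA382T for complexes I, II and III and the assembly factors, SpermRNA500T for complex IV and SpermRNA475C for complex V. The levels that follow are under TMM.

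**Figure D2:**
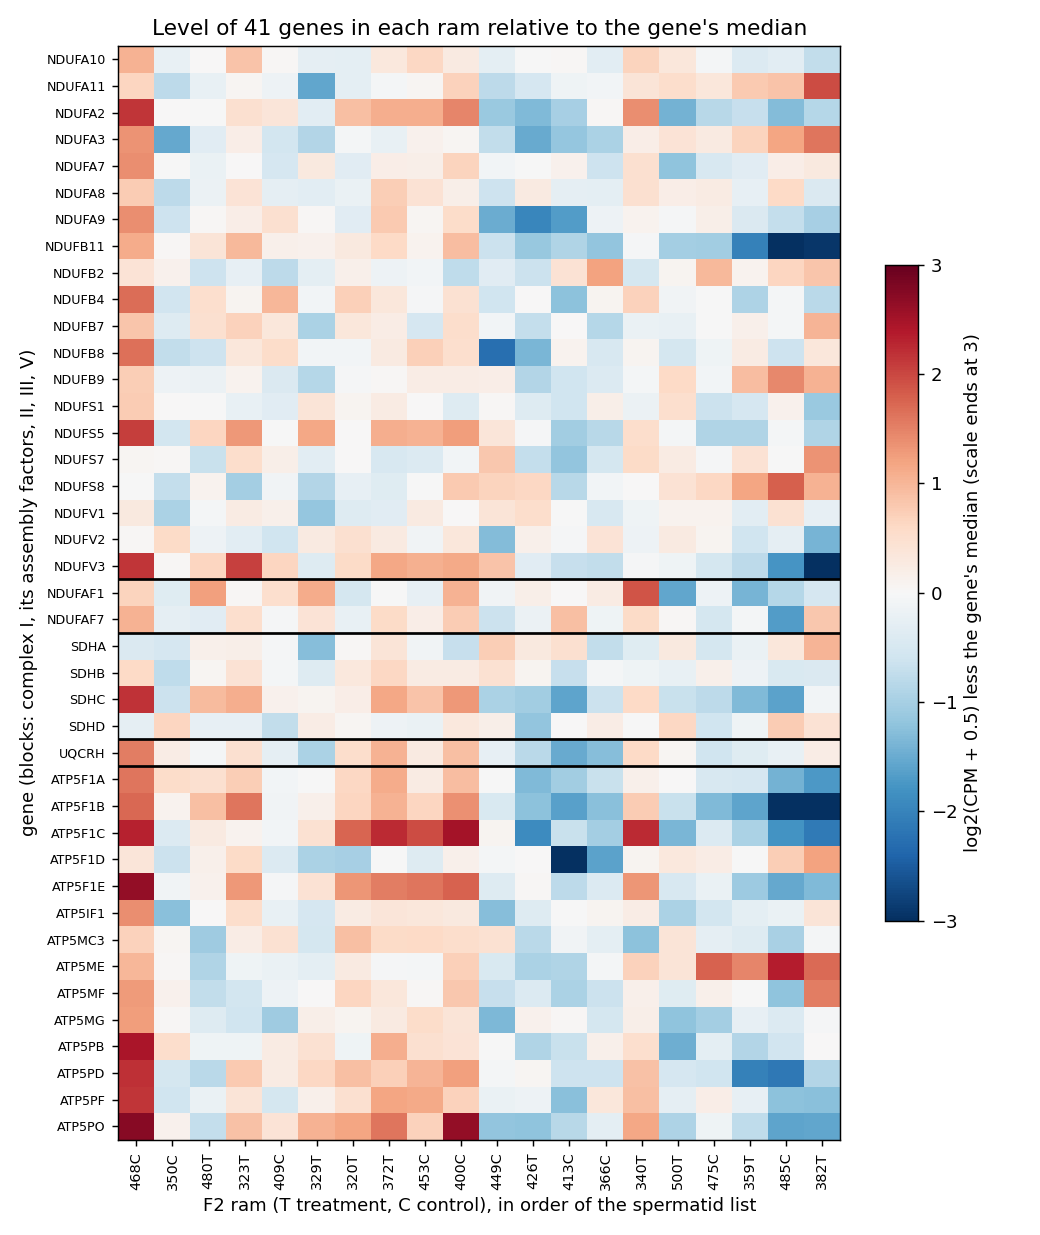
Level of 41 of the 42 genes tested (rows, in blocks by complex) in each of 20 rams (columns, in order of the spermatid list), as log2(CPM + 0.5) less the gene's median over rams. ATP5F1B, NDUFB11 and NDUFV3 are lowest in SpermRNA485C and SpermRNA382T at the right, where ATP5ME, NDUFS8 and NDUFB9 are high, and SpermRNA468C at the left is highest for 24 of the 42 genes.

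Complex I oxidizes NADH, and its core subunits carry the flavin and the iron-sulfur clusters. The 36 subunits summed to 203 CPM at the median, with 149 CPM in SpermRNA413C as the lowest and 451 CPM in SpermRNA468C as the highest value. NDUFB6, an accessory subunit, had a median of 0.943 CPM. NDUFA12, another accessory subunit, had the largest spread (SD 1.39 on the log2 scale), from 0 reads in 1 ram to 19.9 CPM in SpermRNA468C, with a median of 3.22 CPM.

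Of the assembly factors, which build complex I and are not part of the finished enzyme, NDUFAF7 had a median of 6.44 CPM, with values from 1.66 to 13.8 CPM. NDUFAF8 had a median of 1.62 CPM. NDUFAF3 varied most (SD 1.20 on the log2 scale), from 0.212 CPM to 25.1 CPM in SpermRNA382T, with a median of 3.30 CPM. The 8 factors summed to between 18.1 and 61.8 CPM, and SpermRNA382T was the highest.

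Succinate dehydrogenase, complex II, consists of the flavoprotein SDHA, the iron-sulfur protein SDHB and the membrane anchors SDHC and SDHD. All 4 genes passed the filter, and together they summed to a median of 40.2 CPM, between 27.7 CPM in SpermRNA359T and 98.1 CPM in SpermRNA468C. SDHC varied more than the others (SD 1.07 on the log2 scale), from 4.74 CPM in SpermRNA485C to 71.6 CPM in SpermRNA468C, with a median of 15.5 CPM. SDHB stayed between 5.64 and 15.5 CPM, with a median of 9.92 CPM, and had the smallest SD of the 42 genes tested (0.40). SDHA ran from 2.36 to 13.7 CPM with a median of 6.47 CPM, and SDHD from 3.24 to 13.97 CPM with a median of 8.01 CPM. The anchor SDHC was highest in SpermRNA468C, while SDHA and SDHD were highest in SpermRNA382T and SpermRNA485C, respectively. These ranks are under TMM, and on the library total the sum of complex II was highest in SpermRNA382T, at 90.5 CPM.

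UQCRH, the hinge protein that helps cytochrome c dock to complex III, had a median of 11.6 CPM, with 3.77 CPM in SpermRNA413C and 34.8 CPM in SpermRNA468C at the ends. In complex IV, COX5A had a median of 2.99 CPM and ran from 0 reads in SpermRNA382T to 5.51 CPM in SpermRNA468C. NDUFA4, once assigned to complex I and now counted as a subunit of complex IV, had 70 reads in all and a median of 0.446 CPM. Its paralog NDUFA4L2, known as a gene induced by low oxygen, had 207 reads and a median of 3.03 CPM, and overlaps several other genes whose reads may be among these. Every value in complex IV thus rested on few reads.

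Complex V turns the proton gradient into ATP. The 18 genes summed to a median of 212 CPM, with 113 CPM in SpermRNA413C as the lowest and 804 CPM in SpermRNA468C as the highest value. ATP5F1B, the catalytic beta subunit, had a median of 59.9 CPM. It also had the widest spread of the complex (SD 1.53 on the log2 scale), from 4.26 CPM in SpermRNA485C to 197 CPM in SpermRNA468C. ATP5F1C, the gamma subunit of the central stalk, reached 126 to 211 CPM in SpermRNA320T, SpermRNA340T, SpermRNA372T, SpermRNA400C, SpermRNA453C and SpermRNA468C, and 8.08 to 51.3 CPM in the other 14. Those 6 rams had the 6 largest libraries, from 7229123 reads upward, and TMM widened the gap. Scaled by the library total, they lay between 67.3 and 118 CPM and the others between 11.5 and 58.7 CPM. Whether the counting used strand is not given in the sources used here, and without it the reads of overlapping genes cannot be told apart. In RefSeq (assembly ARS-UI_Ramb_v3.0) 17 of the 68 members found by symbol overlap another gene. ATP5F1C overlaps a long noncoding RNA, and among protein-coding neighbours ATP5F1E overlaps TUBB1, ATP5PF overlaps GABPA, NDUFA2 overlaps TMCO6, NDUFA3 overlaps TFPT, NDUFAF7 overlaps PRKD3, UQCRH overlaps LRRC41, and NDUFA4L2 overlaps R3HDM2, SHMT2 and STAC3.

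The first question put to these levels was how they moved with the composition of the libraries. For each marker list a slope was fitted over the 20 rams, as the log2 change of a gene for each unit of log2 in the summed list (edgeR's quasi-likelihood test, Benjamini-Hochberg adjustment over 13577 genes). The list and the genes came from the same libraries and shared their scaling factors, so that a shift in a factor moves both. Sire was not a term in these fits, and rams of the same sire were taken as independent. The SE and adjusted p of the slopes may therefore be too small, and the slopes are descriptions. ATP5ME, NDUFS8, NDUFA11 and NDUFB9 rose with the spermatid list, and 16 genes fell with it, among them the catalytic ATP synthase subunit ATP5F1B and the complex I subunits NDUFB11 and NDUFV3. Of the 42 genes, 4 (9.52%) thus rose and 16 (38.1%) fell, against 24.7% and 31.8% of all genes tested. The median slope was -0.15 for the 42 genes and -0.04 for all genes. The number that fell was near the share of all genes, and the number that rose was below it. With the log2 library total as a further term, 5 (11.9%) rose and 8 (19%) fell, against 21.1% and 25.8% of all genes. Both shares were then below those of all genes.

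The scale decided much of the count of members that rose and fell. With the library total alone as the scale, the median slope of all genes shifted from -0.04 to 0.26. Then 23 members rose and 4 fell, or 54.8% and 9.52%, against 57.3% and 9.35% of all genes, so that the members' shares were those of all genes. All 4 members that rose under TMM also rose under this scale. Of the 16 that fell, ATP5F1B, ATP5F1E, ATP5PO and NDUFB11 fell under both scales, while 5 had slopes above 0. Relative to the median of all genes, all 20 kept their sign. Taking off that median puts back much of the centring that TMM performs, so that this agreement was largely given beforehand.

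**Figure D3:**
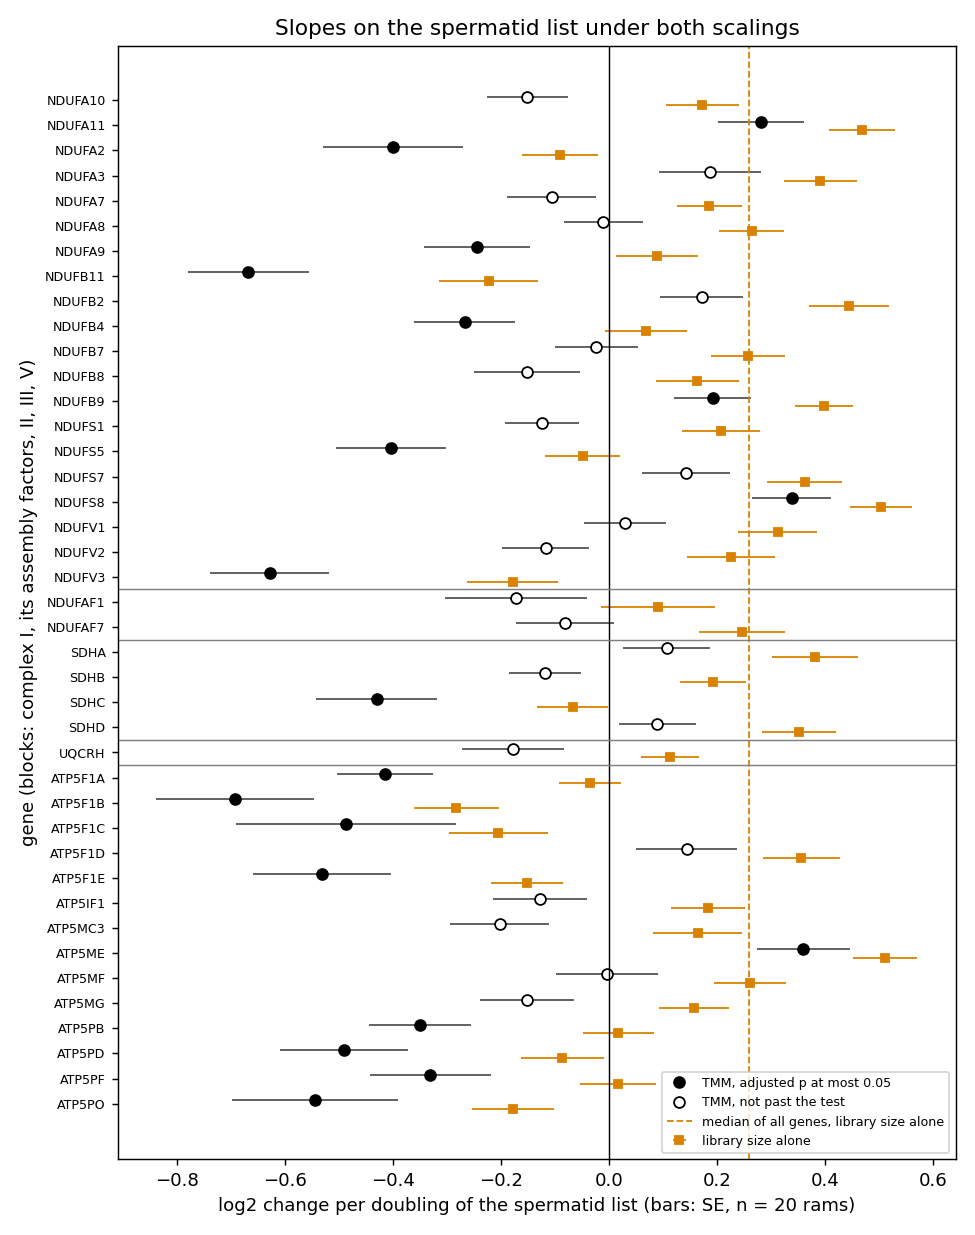
Slope of 41 of the 42 genes on the spermatid list (log2 change for each unit of log2 in the summed list, with SE, n = 20 rams) under TMM scaling (circles, filled where the adjusted p was at most 0.05) and under the library total alone (squares), with the median of all genes under the latter as a dashed line. ATP5ME, NDUFS8, NDUFA11 and NDUFB9 lie above 0 under both scales, ATP5F1B, ATP5F1E, ATP5PO and NDUFB11 lie below 0 under both, and the squares are shifted to the right as a whole.

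ATP5ME, which codes for subunit e of the membrane part of ATP synthase, had the steepest rise. It ran from 7.28 CPM in SpermRNA426T to 75.8 CPM in SpermRNA485C, with a median of 14.5 CPM. The 4 highest values were in SpermRNA485C, SpermRNA475C, SpermRNA382T and SpermRNA359T, at 75.8, 50.8, 48.5 and 40.8 CPM, which were the 4 rams with the highest spermatid list. Its slope was 0.36 ± 0.086 (SE, n = 20, edgeR adjusted p = 0.00149), and 0.51 ± 0.060 (adjusted p = 5.71e-08) on the library total.

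NDUFS8, a core subunit of complex I that holds iron-sulfur clusters, ran from 6.07 CPM in SpermRNA323T to 46.2 CPM in SpermRNA485C, with a median of 12.9 CPM. SpermRNA485C, SpermRNA359T and SpermRNA382T were the 3 highest. Its slope was 0.34 ± 0.073 (SE, n = 20, edgeR adjusted p = 0.000569). NDUFA11, an accessory subunit of the membrane arm, was highest in SpermRNA382T at 24.6 CPM and lowest in SpermRNA329T at 1.69 CPM, around a median of 5.95 CPM, and had a slope of 0.28 ± 0.079 (adjusted p = 0.00513). NDUFB9, another accessory subunit of that arm, lay between 5.66 and 30.1 CPM with a median of 10.8 CPM, and its slope was 0.19 ± 0.071 (adjusted p = 0.0252).

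Without SpermRNA382T and SpermRNA485C, which were also the 2 rams farthest from the median of the spermatid list, 1 member rose and 9 fell among the 18 rams, against 16% and 12.9% of all genes. NDUFS8 was the gene that still rose. The 9 that fell were ATP5F1A, ATP5F1B, ATP5F1E, ATP5PB, ATP5PD, NDUFB11, NDUFS5, NDUFV3 and SDHC. ATP5ME, NDUFA11 and NDUFB9 did not pass the test without these 2 rams. Without the filter on low counts NDUFA11 and NDUFB9 did not pass either, with slopes of 0.24 and 0.15. Without SpermRNA382T alone 2 members (4.76%) rose and 14 (33.3%) fell, against 20.9% and 25.7% of all genes. Without SpermRNA468C alone 6 (14.3%) rose and 9 (21.4%) fell, against 22.8% and 27.5% of all genes, so that both shares were then below those of all genes. NDUFA11 did not pass without SpermRNA382T (adjusted p = 0.0702), and NDUFB9 did not pass without SpermRNA359T, SpermRNA382T or SpermRNA485C (adjusted p = 0.0537, 0.0708 and 0.156).

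Among the genes that fell, NDUFB11, an accessory subunit of the membrane arm, had 2 reads in SpermRNA382T and 1 read in SpermRNA485C, at 0.808 and 0.237 CPM. In the other 18 rams it ran from 1.95 CPM in SpermRNA359T to 20.98 CPM in SpermRNA468C. The median over all rams was 9.46 CPM, and the slope was -0.67 ± 0.11 (SE, n = 20, edgeR adjusted p = 3.03e-05).

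NDUFV3, an accessory subunit of the module that oxidizes NADH, was likewise lowest in SpermRNA382T and SpermRNA485C, at 0.808 and 3.32 CPM, and highest in SpermRNA468C at 56.8 CPM, with a median of 12.5 CPM. Its slope was -0.63 ± 0.11 (adjusted p = 5.35e-05), and on the library total it did not pass the test (-0.18, adjusted p = 0.065). SpermRNA382T and SpermRNA485C, the lowest for both genes, were also those with the lowest epithelium and leukocyte lists.

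The subunits of ATP synthase did not move as 1 block. Of the 5 subunits of the catalytic F1 part, 4 fell with the spermatid list, ATP5F1A (alpha), ATP5F1B (beta), ATP5F1C (gamma) and ATP5F1E (epsilon), where 31.8% of all genes fell. ATP5F1B and ATP5F1E also passed on the library total, while ATP5F1A (-0.03, adjusted p = 0.598) and ATP5F1C (-0.21, adjusted p = 0.0515) did not. Under TMM ATP5F1C was near the threshold (edgeR adjusted p = 0.0445). It did not pass when scaled by relative log expression, without the filter on low counts, or without SpermRNA382T and SpermRNA485C. Nor did it pass with the log2 library total as a further term. ATP5F1B had the steepest slope of the 42 genes, -0.69 ± 0.15 (SE, n = 20, edgeR adjusted p = 0.000462), and -0.28 on the library total (adjusted p = 0.00318). It had 5.25 CPM in SpermRNA382T and 4.26 CPM in SpermRNA485C, against at least 18.8 CPM in each of the other 18 rams. ATP5F1D (delta) did not pass the test under TMM, with a slope of 0.14 ± 0.094 (adjusted p = 0.187). On the library total ATP5F1D rose (0.36, edgeR adjusted p = 0.000124), where 57.3% of all genes rose.

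All 4 subunits of the peripheral stalk, ATP5PB, ATP5PD, ATP5PF and ATP5PO, fell with the spermatid list, with slopes from -0.54 for ATP5PO to -0.33 for ATP5PF, where 31.8% of all genes fell. On the library total ATP5PO fell (-0.18, adjusted p = 0.0438), while ATP5PD (-0.09, adjusted p = 0.331) and ATP5PB and ATP5PF, with slopes of 0.02 each, did not pass the test. Without SpermRNA382T and SpermRNA485C, ATP5PB and ATP5PD still fell under TMM, and ATP5PF and ATP5PO did not pass. With the log2 library total as a further term ATP5PD and ATP5PO passed, and without the filter on low counts ATP5PF did not. ATP5PO ran from 2.37 CPM in SpermRNA485C to 56.6 CPM in SpermRNA468C, with a median of 8.10 CPM. SpermRNA400C, at 52.7 CPM, was next to SpermRNA468C, and every other ram had at most 25.4 CPM.

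In the membrane part, ATP5ME rose, and ATP5MC3 (c ring), ATP5MF and ATP5MG did not pass the test, with slopes of -0.20, -0.003 and -0.15. The inhibitor ATP5IF1 had a slope of -0.13 (adjusted p = 0.205). On the library total ATP5MF, ATP5MG and ATP5IF1 rose, with slopes of 0.26, 0.16 and 0.18 (edgeR adjusted p = 0.00148, 0.035 and 0.0205). ATP5MC3 did not pass there (0.16, adjusted p = 0.0804). For complex V as a whole, 1 of the 14 genes tested (7.14%) rose and 8 (57.1%) fell, against 24.7% and 31.8% of all genes, and the median slope was -0.34. The direction of the count turned on the library total, where 5 (35.7%) rose and 3 (21.4%) fell, against 57.3% and 9.35% of all genes, with a median slope of 0.017.

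In complex I, 3 of 21 subunits (14.3%) rose and 7 (33.3%) fell with the spermatid list, against 24.7% and 31.8% of all genes, so that the share that fell was near that of all genes. The median slope was -0.12. With the library total as the scale 14 (66.7%) rose and 1 (4.76%) fell, against 57.3% and 9.35% of all genes, and the median slope was 0.21. Besides NDUFB11 and NDUFV3, those that fell included NDUFA2, NDUFA9, NDUFB4 and NDUFS5, with slopes from -0.40 to -0.24. Neither of the 2 assembly factors tested passed. SDHC was the gene of complex II that fell, with a slope of -0.43 (adjusted p = 0.00284) that did not pass on the library total (-0.07). SDHA, SDHB and SDHD had slopes of 0.11, -0.12 and 0.09 under TMM and did not pass the test. On the library total these 3 genes rose, with slopes of 0.38, 0.19 and 0.35 (edgeR adjusted p = 0.000206, 0.00747 and 0.000101), where 57.3% of all genes rose. UQCRH had a slope of -0.18 (adjusted p = 0.107). The 2 anchors of succinate dehydrogenase, SDHC and SDHD, thus differed in whether they passed, and which of them passed changed with the scale. The difference between them was not tested.

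**Figure D4:**
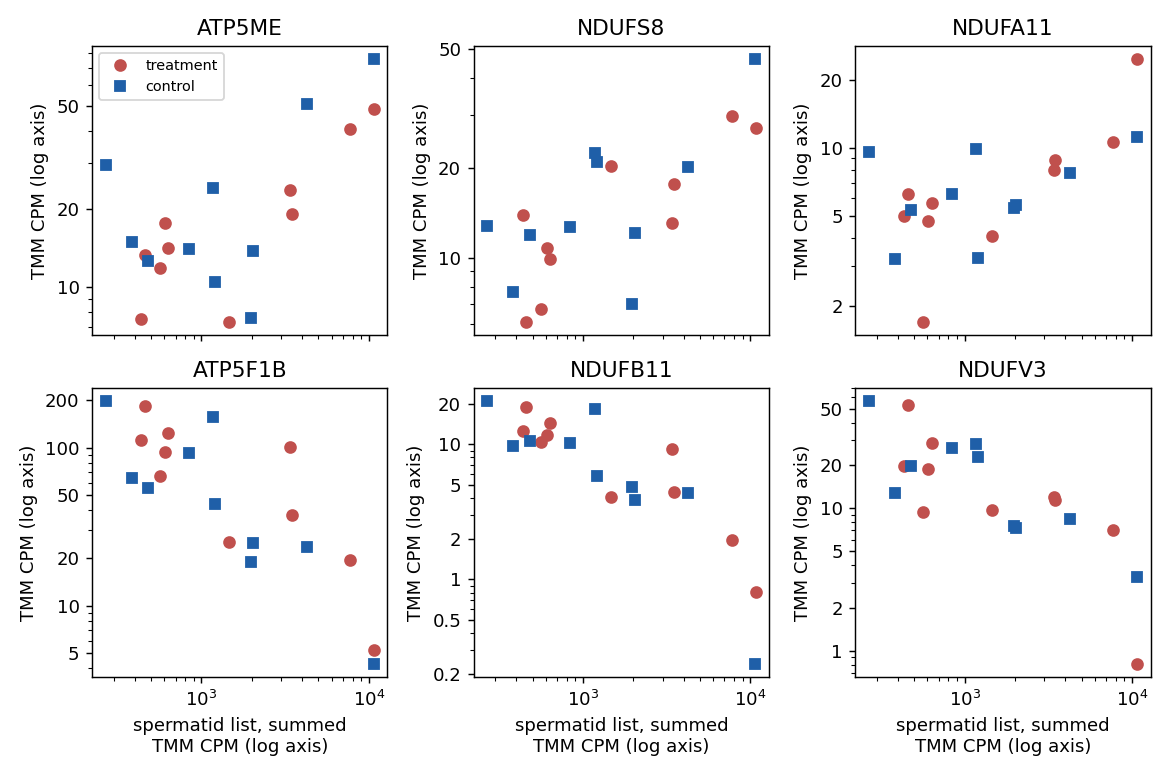
TMM CPM (log axis) of 6 genes against the summed spermatid list (log axis) in 20 rams, with treatment rams as circles and control rams as squares. ATP5ME, NDUFS8 and NDUFA11 are high in the rams at the right, and ATP5F1B, NDUFB11 and NDUFV3 are lowest there, with rams of both lines mixed along each panel.

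The squamous epithelium list gave the opposite picture. Of the 42 genes, 20 (47.6%) rose with it, against 32.9% of all genes, and 5 (11.9%) fell, against 32.2%. The 5 were ATP5ME, NDUFS8, NDUFA11, NDUFB9 and NDUFB2, and the 20 held all 16 genes that fell with the spermatid list. The epithelium and spermatid lists ran against each other in the same libraries. The overlap was not counted over all genes, so that it cannot be read as a trait of the members. The median slope was 0.12 for the members and 0.01 for all genes. ATP5F1B had the steepest slope, 0.62 ± 0.068 (SE, n = 20, edgeR adjusted p = 6.88e-08), followed by NDUFB11 with 0.61 ± 0.065 (adjusted p = 3.97e-08), ATP5F1C with 0.52, ATP5PO with 0.50 and NDUFV3 with 0.49. The lowest slope was that of ATP5ME, -0.19 ± 0.062 (adjusted p = 0.0086).

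On the library total the count turned round, with 6 members that rose and 16 that fell, or 14.3% and 38.1%, against 13.1% and 40.6% of all genes. The 6 were ATP5F1B, ATP5F1C, ATP5F1E, ATP5PO, NDUFB11 and NDUFV3, and the 5 genes that fell under TMM also fell on the library total. The median slope of all genes was -0.23 on this scale. Without SpermRNA382T and SpermRNA485C, 23 members (54.8%) rose and 1 (2.38%), NDUFB2, fell under TMM, against 29.8% and 31.3% of all genes. Among these 18 rams the slopes of NDUFA11 and NDUFB9 were 0.01 and 0.03. The fall of ATP5ME and NDUFS8 did not pass without SpermRNA485C alone (adjusted p = 0.151 and 0.14), nor did that of NDUFA11 without SpermRNA382T alone, where its slope went from -0.15 to -0.06 (adjusted p = 0.415). That of NDUFB9 did not pass without either alone. The slope of NDUFB2 kept its size without SpermRNA382T, at -0.14, with an adjusted p of 0.0542. Without the filter on low counts the slopes of ATP5ME, NDUFS8, NDUFA11, NDUFB9 and NDUFB2 were -0.12, -0.10, -0.07, -0.05 and -0.06, and 0 of the 5 passed (adjusted p from 0.142 to 0.479). With the log2 library total as a further term, 9 members (21.4%) rose, near the 23.3% of all genes, and 6 (14.3%) fell, against 22.1%.

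With the leukocyte list, 18 of the 42 genes (42.9%) rose, against 36.6% of all genes, and 6 (14.3%) fell, against 31.7%. All 18 were among the 20 that rose with the epithelium list. The 6 were the 5 genes that fell with that list and SDHA, which had a slope of -0.12 (edgeR adjusted p = 0.0487). SDHA no longer passed with the diet line or the log2 library total as a further term, without the filter, or without SpermRNA382T and SpermRNA485C. ATP5F1B again had the steepest slope, 0.66 ± 0.087 (SE, n = 20, adjusted p = 7.93e-07). On the library total 5 members rose and 14 fell, against 15% and 32.9% of all genes, with a median slope of -0.20 over all genes. Without SpermRNA382T and SpermRNA485C, 21 (50%) rose and 0 fell, against 33.4% and 29.9% of all genes. With the log2 library total as a further term, 9 (21.4%) rose and 6 (14.3%) fell, against 28.1% and 23.3% of all genes. The fall of ATP5ME and NDUFS8 with this list did not pass without SpermRNA485C alone, that of NDUFA11 without SpermRNA382T alone, and that of NDUFB9 without either alone, while NDUFB2, with a slope of -0.13, kept slopes from -0.15 to -0.12 in the 10 of 20 fits without 1 ram in which it did not pass (adjusted p from 0.0509 to 0.11). Without the filter the same 5 genes did not pass.

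The 3 lists could not be separated by these libraries. With the other 2 lists in the model, 0 members passed the test with the spermatid list and 0 with the leukocyte list, and 3 (7.14%) rose with the epithelium list, ATP5F1B, ATP5F1C and NDUFV3. Of all genes, 6.65% rose and 0.479% fell with the spermatid list, 6.87% and 0.479% with the leukocyte list, and 6.25% and 7.61% with the epithelium list, so that the 3 members were near the share of all genes. A lost call did not always go with a smaller slope. On the spermatid list ATP5ME and NDUFS8 had slopes of 0.30 and 0.29 in this model (adjusted p = 0.462 and 0.301), against 0.36 and 0.34 with that list alone, whereas ATP5PO went from -0.54 to 0.0082. Which cells the reads of each gene came from was not tested.

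Without the filter, 27658 genes entered the fit and the 28 low members could be followed too. With the spermatid list 3 of them (10.7%) rose and 2 (7.14%) fell, against 12.1% and 12.9% of all genes in this fit, so that neither share was above that of all genes. With the epithelium list 7 (25%) rose and 1 (3.57%) fell, against 21.4% and 18.6%, and with the leukocyte list 7 (25%) rose and 2 (7.14%) fell, against 23.3% and 18.4%. The 3 that rose with the spermatid list code for assembly factors of complex I. NDUFAF2, NDUFAF4 and NDUFAF6, also assembly factors, did not pass the test (slopes of -0.06, -0.04 and 0.08). NDUFAF3 had a slope of 0.66 ± 0.11 (SE, n = 20, edgeR adjusted p = 2.37e-05), NDUFAF8 of 0.46 ± 0.11 (adjusted p = 0.00219) and NDUFAF5 of 0.38 ± 0.10 (adjusted p = 0.00694). NDUFA6 and the c-ring gene ATP5MC2 fell, with slopes of -0.46 and -0.42. NDUFAF3 was highest in SpermRNA382T, NDUFAF8 in SpermRNA485C and NDUFAF5 in SpermRNA359T, the 3 rams with the highest spermatid list. Slopes of the 28 low members on the library total, or without SpermRNA382T and SpermRNA485C, are not given here.

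Genes next to the respiratory chain held pairs of a testis form and a somatic form, which were chosen for the text after their presence in the table was seen. PDHA2 is the testis form of the E1 alpha subunit of pyruvate dehydrogenase, and PDHA1 the somatic form. PDHA2 ran from 0.404 CPM in SpermRNA400C to 48.1 CPM in SpermRNA485C, with a median of 4.03 CPM, and PDHA1 from 1.42 CPM in SpermRNA485C to 19.4 CPM in SpermRNA323T, with a median of 8.35 CPM. The log2 ratio of PDHA2 to PDHA1, with 0.5 CPM added to each, was -1.34 at the median, and its ends were -3.89 in SpermRNA400C and 4.66 in SpermRNA485C. PDHA2 rose with the spermatid list (slope 0.81 ± 0.098, SE, n = 20, edgeR adjusted p = 2.5e-07), a larger slope than that of any of the 42 members, and PDHA1 fell (-0.43 ± 0.096, adjusted p = 0.000806). On the library total PDHA2 rose too (0.90, adjusted p = 1.29e-09), while PDHA1 had a slope of -0.004 (adjusted p = 0.971). Neither gene's values were divided by length, so that only the movement of the ratio between rams can be read.

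SLC25A31 is the testis form of the carrier that exports ATP from mitochondria, and SLC25A4 and SLC25A6 are somatic forms. SLC25A31 had at most 18 reads in a ram and 0 reads in 2 rams. Its log2 ratio to SLC25A6 ran from -7.28 in SpermRNA372T to 0.97 in SpermRNA382T with a median of -4.36, and the 2 highest values were those of SpermRNA382T and SpermRNA485C. The value in SpermRNA372T rested on 0 reads of SLC25A31 and so on the amount added (-9.59 with 0.1 CPM and -5.31 with 2 CPM). Its log2 ratio to SLC25A4 had a median of -1.22 and was highest in SpermRNA350C, at 1.35. SLC25A6 fell with the spermatid list (slope -0.63 ± 0.15, edgeR adjusted p = 0.0015) but not on the library total (-0.17, adjusted p = 0.167). The values of the pairs did not separate the lines: the PDHA2 to PDHA1 ratio had a mean of -0.39 ± 1.84 in the treatment line and -0.87 ± 2.60 in the control line (SD, n = 10 each).

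Among the members, NDUFA4L2 and NDUFA4 are related forms, although they are not a pair of testis and somatic forms. The log2 ratio, again not corrected for length and read only between rams, had a median of 1.54, a lowest value of -0.83 in SpermRNA400C and a highest of 3.31 in SpermRNA480T. NDUFA4 had 0 reads in SpermRNA480T, so that the highest value was set by the 0.5 CPM added and was 5.51 with 0.1 CPM and 1.69 with 2 CPM. At most 24 reads of NDUFA4L2, some of which may belong to the genes it overlaps, and 9 of NDUFA4 stood behind a value. The ratio had a mean of 1.17 ± 1.15 in the treatment line and 1.66 ± 1.20 in the control line (SD, n = 10 each), so that the lines overlapped.

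Other genes of the pathway were read from the same fits. Of 26 electron carriers, citric acid cycle enzymes and ATP exporters, 20 were tested, and 4 (20%) rose and 10 (50%) fell with the spermatid list, against 24.7% and 31.8% of all genes, with a median slope of -0.17. Those that rose were PDHA2, PDHB, DLD and VDAC3. The count turned round on the library total, where 9 (45%) rose and 1 (5%), VDAC2, fell, against 57.3% and 9.35% of all genes, so that 9 of the 10 falls were lost. Of 9 further assembly factors tested, of 33 listed, 2 rose (NUBPL, which supplies iron-sulfur clusters to complex I, and ATPAF2, an assembly factor of F1) and 2 fell (TTC19 and SDHAF2). These were 22.2% each, below the shares of all genes. All 9 regulators of mitochondrial biogenesis were tested. TFAM, which packages mitochondrial DNA, PPARGC1A and POLRMT rose with the spermatid list, and GABPA, ESRRA and YY1 fell, or 33.3% each, against the same 24.7% and 31.8%. Scaled by the library total, 5 of the 9 assembly factors and 5 of the 9 regulators (55.6% each) rose and 0 fell. TFAM, PPARGC1A, POLRMT, NUBPL, ATPAF2, PDHB, DLD and VDAC3 rose on that scale too, while TTC19, SDHAF2, GABPA, ESRRA and YY1 did not pass the test and had slopes from -0.05 to 0.11. TFAM ran from 6.46 CPM in SpermRNA400C to 72.1 CPM in SpermRNA359T, with a slope of 0.64 ± 0.079 (SE, n = 20, edgeR adjusted p = 3.16e-07). Between the diet lines 0 of the 20, 9 and 9 genes of these lists passed the test.

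The second question, for which the trial was made, was whether the lines differed. No member gene passed the test between the treatment and control lines. In edgeR's quasi-likelihood test 0 of the 42 genes passed an adjusted p of 0.05, against 0% of all genes (0 of 13577), and 0 of the 42 had an unadjusted p under 0.05, against 0.766% of all genes (104). That share is smaller than the threshold of 0.05 itself would give with no difference at all. The test was thus conservative here, and the lack of calls does not show that the lines are alike. DESeq2 called 0 genes, with 174 at an unadjusted p under 0.05 and 0 members among them. Every member had an adjusted p of 1. The median log2 difference, treatment less control, was -0.05 for the members and -0.05 for all genes. Of the members 14 lay above 0 and 28 below, and of all genes tested 5812 lay above and 7765 below. Differences ran from -0.59 for ATP5PB to 0.35 for ATP5F1D.

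ATP5PB, a peripheral stalk subunit of ATP synthase, had the smallest p of the members lower in the treatment line. It ran from 2.57 to 17.6 CPM with a median of 7.24 CPM in the treatment line, and from 4.85 to 45.8 CPM with a median of 9.19 CPM in the control line. The ranges overlapped, and the highest control value was that of SpermRNA468C. The log2 difference was -0.59 ± 0.40 (SE, n = 10 each, edgeR p = 0.148, adjusted p = 1), and without SpermRNA468C it was -0.059.

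NDUFB2, an accessory subunit of complex I, had medians of 10.2 CPM (7.28 to 21.4) in the treatment line and 14.3 CPM (6.59 to 27.6) in the control line, a log2 difference of -0.40 ± 0.30 (SE), which was -0.25 without SpermRNA366C. ATP5PO had medians of 9.96 CPM (2.42 to 25.4) and 8.10 CPM (2.37 to 56.6), and a log2 difference of -0.53 ± 0.56. Its median was higher and its fitted mean lower in the treatment line, and neither difference passed the spread between rams. The log2 difference was -0.088 without SpermRNA468C, -0.14 without SpermRNA400C and -0.23 with the pairing of consecutive sire numbers as a block.

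In the other direction, NDUFS7, a core subunit of complex I, had medians of 4.73 CPM (2.43 to 11.7) in the treatment line and 4.20 CPM (1.62 to 7.82) in the control line, a log2 difference of 0.33 ± 0.30 (SE). ATP5F1D, the delta subunit of F1, had medians of 13.4 CPM (6.27 to 30.3) and 11.1 CPM (1.08 to 21.8), a difference of 0.35 ± 0.37. SDHA had medians of 7.32 CPM (2.36 to 13.7) and 5.35 CPM (3.66 to 11.1), a difference of 0.25 ± 0.29. For each of the 3 genes the lines overlapped. Without SpermRNA382T the differences of NDUFS7, ATP5F1D and SDHA were 0.14, 0.17 and 0.11, and that of ATP5F1D was 0.23 without SpermRNA413C or with the epithelium and leukocyte lists as further terms.

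**Figure D5:**
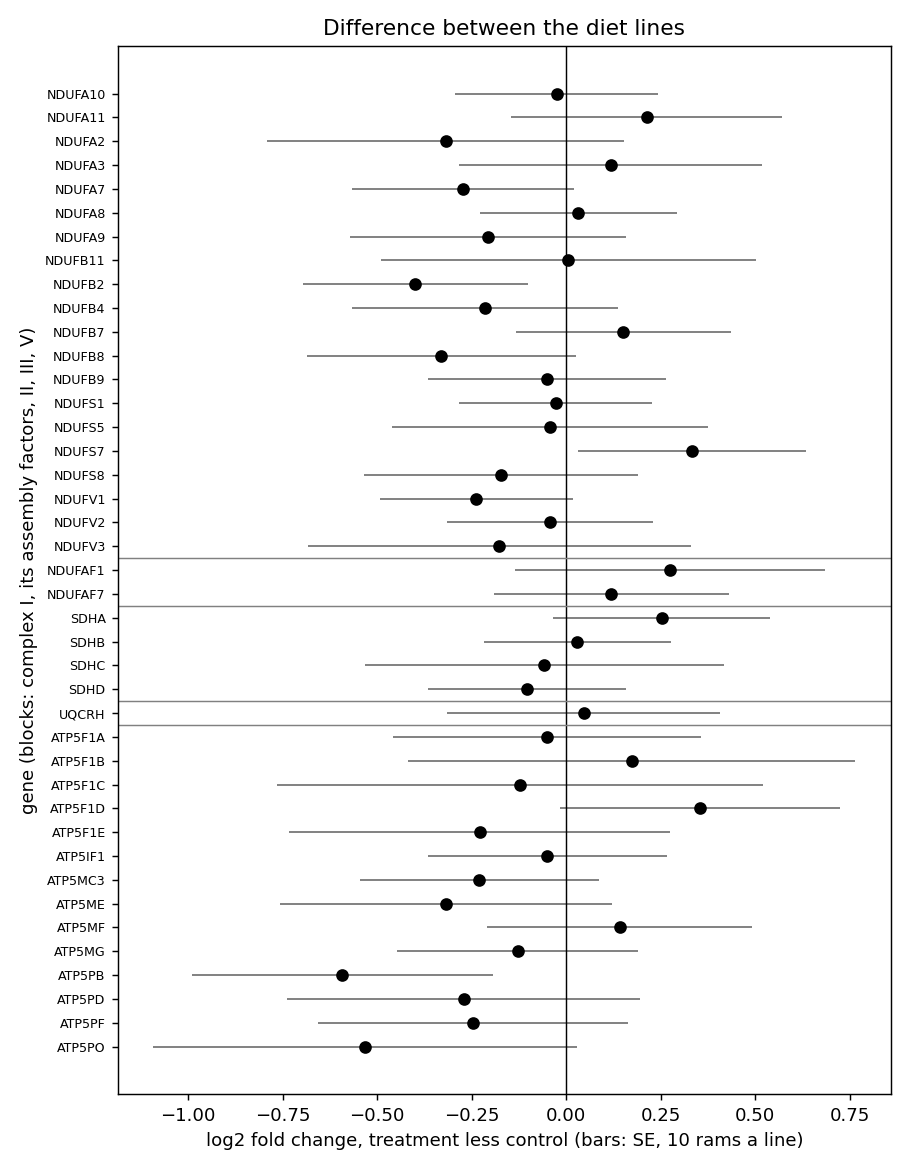
Log2 fold change, treatment less control, of 41 of the 42 genes, in blocks by complex, with SE (10 rams a line). All points lie between -0.59 (ATP5PB) and 0.35 (ATP5F1D), and none passed the test. Most lie below 0, as do most of all genes tested.

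By complex, the mean of the summed levels was 214 ± 38.2 CPM in the treatment line and 230 ± 90.3 CPM in the control line for complex I, 45.1 ± 12.9 and 45.2 ± 21.9 CPM for complex II, and 288 ± 143 and 304 ± 234 CPM for complex V (SD, n = 10 each). The marker lists of the lines overlapped too. The mean difference of the log2 sums, treatment less control, was 0.25 for the spermatid list, 0.14 for the epithelium list and -0.10 for the leukocyte list (two-sided permutation p = 0.739, 0.897 and 0.914, adjusted 0.914 each). The SDs within a line were between 1.62 and 2.66 on this scale. Counts summed for each F0 sire, the pairing of sires with consecutive numbers (which sires were twins is not named in the labels), and a model with the epithelium and leukocyte lists as further terms also gave 0 members.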

How the data were processed

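The authors trimmed single-end reads of sperm RNA with Trimmomatic, aligned them to Oar_rambouillet_v1.0 with STAR and counted them per gene; the deposited values are raw counts. Tool versions and the strand setting were not given in the sources used here. The deposited tables of bisulfite sequencing were not used here, since no annotation of this build was at hand to place cytosines in member genes. No sequences or transcript lengths were used. RefSeq symbols matched 68 of 70 members, and 17 of these overlap another gene in that table (assembly ARS-UI_Ramb_v3.0).

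Counts were scaled with TMM, over the reads of the genes tested, and analysed in edgeR 4.0.16 (R 4.3.3) by the quasi-likelihood test. Genes needed 15 or more reads in over 10 rams, p-values were adjusted over all genes tested (Benjamini-Hochberg), and the threshold was 0.05. The diet lines were compared 10 against 10. Slopes used log2(summed CPM + 1) of each marker list as the covariate, 1 list at a time. SE was the absolute log2 value divided by the square root of F. No 2 libraries held identical counts. Alternatives were size factors by relative log expression, DESeq2 1.42.0, the library total alone, no filter, sums per sire, added terms and leaving out rams. Sums per sire and the pairing of sires were run for the diet comparison and not for the slopes. The scripts were tested on simulated data. List levels were compared with 100000 permutations of single rams, without regard to sire. The limits for counts of 0 cover counting error only, since reads carried no molecular identifiers.

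The members, lists and tests were chosen with earlier results of these data known. Named genes were, by rule, the forms of isoform pairs, members that failed the filter, for each complex the members with the highest and lowest median and the largest SD, the 3 members with the smallest p in each direction between the lines, and the 5 members with the largest slopes in each direction for each list. Other genes are named as belonging to lists. Values of 1 member are not reported here, although it enters the counts.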

Additional observations from a re-analysis of the deposited data

Results flagged for a closer look

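In 3 of 34 groups of 10 rams examined, 1 ram lay far from the others of its line on the log2(CPM + 0.5) scale, with a gap to its nearest neighbour above Dixon's limit. Chance gives about 1 in 20 such groups where they are independent and unselected, but these genes were named for their slopes or p-values and move together, so that this rate is no reference for the count. ATP5PB was 45.8 CPM in control library SpermRNA468C, against 11.7 CPM in the next highest control ram. NDUFB11 was 0.237 CPM in control library SpermRNA485C, a single read, against 3.88 CPM in the next lowest control ram. NDUFV3 was 0.808 CPM in treatment library SpermRNA382T, from 2 reads, against 6.99 CPM in the next lowest treatment ram. SpermRNA468C had the largest library, the smallest TMM factor and, under TMM, the highest epithelium and leukocyte lists (on the library total the leukocyte list was highest in SpermRNA350C). SpermRNA485C and SpermRNA382T had the lowest lists on either scale. The part of these differences in the values was not tested.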

How the results depend on the processing

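Between the diet lines 0 members passed under every alternative run, including DESeq2, sums per sire, the pairing of consecutive sire numbers and each of 20 fits without 1 ram. For the lists, members that rose and fell numbered 4 and 16 with the spermatid list, 20 and 5 with the epithelium list and 18 and 6 with the leukocyte list. Shares of all genes that rose and fell follow each pair. On the library total they numbered 23 and 4 (57.3% and 9.35%), 6 and 16 (13.1% and 40.6%), and 5 and 14 (15% and 32.9%). With the other 2 lists added they numbered 0 and 0 (0 in all, 6.65% and 0.479%), 3 and 0 (3 in all, 6.25% and 7.61%), and 0 and 0 (0 in all, 6.87% and 0.479%). Without the 2 rams farthest from each list's median, SpermRNA382T and SpermRNA485C for every list, they numbered 1 and 9 (10 in all, 16% and 12.9%), 23 and 1 (29.8% and 31.3%), and 21 and 0 (33.4% and 29.9%). With the log2 library total added, a choice made after seeing the data, they numbered 5 and 8 (13 in all, 21.1% and 25.8%), 9 and 6 (15 in all, 23.3% and 22.1%), and 9 and 6 (15 in all, 28.1% and 23.3%), so that no share of members was above that of all genes. Without the filter they numbered 5 and 13 (12.1% and 12.9%), 32 and 1 (21.4% and 18.6%), and 32 and 2 (23.3% and 18.4%), of 70 members. Adding the diet line or scaling by relative log expression, the latter chosen after seeing the data, moved no count by over 1.5 times.

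Leaving out 1 ram gave 15 to 23 members in all for the spermatid list (2 to 6 rose, 9 to 18 fell), 22 to 27 for the epithelium list (17 to 25 rose, 2 to 6 fell) and 20 to 25 for the leukocyte list (14 to 22 rose, 2 to 7 fell). The lowest counts of falling members, 2 for the epithelium and leukocyte lists, came without SpermRNA382T or SpermRNA485C. Of all genes, 19.9% to 26.7% rose and 24.5% to 34.8% fell with the spermatid list in these fits, 30.9% to 34.4% and 29.8% to 32.7% with the epithelium list, and 34.4% to 36.6% and 29.4% to 32.1% with the leukocyte list.

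Of the slopes of named genes under alternatives, 703 kept their direction and passed the test, 67 kept the direction but no longer passed (25 of them without 1 ram), and 13 reversed. The differences between the lines had an adjusted p of 1 throughout, so that their side of the threshold says nothing, and 10 of their 156 values moved by over 1.5 times. ATP5PB, for one, went from -0.59 to -0.059 without SpermRNA468C. With the other 2 lists added, ATP5PO reversed to 0.0082 on the spermatid list, ATP5ME, NDUFS8, NDUFA11 and NDUFB9 to 0.14, 0.19, 0.26 and 0.15 on the epithelium list, and ATP5F1B, NDUFB11, ATP5F1C, ATP5PO, NDUFV3 and NDUFB2 to -0.27, -0.0953, -0.605, -0.0920, -0.54 and 0.31 on the leukocyte list. Without SpermRNA382T and SpermRNA485C, NDUFA11 and NDUFB9 reversed to 0.0112 and 0.0328 on the epithelium list. The cause was not tested. The NDUFA4L2 to NDUFA4 ratio had a median of 2.08 with 0.1 CPM added and of 0.87 with 2 CPM. Ratios per kilobase and the comparison of cytosines in member genes were not run, for want of transcript lengths and of an annotation of the build. The number of reads counted in genes limits the 28 members below the filter most, since 14 of them had 0 reads in some rams.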
